A study of Chlamydomonas reinhardtii with 3 samples.

Results

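The LHCBM genes encode the major light-harvesting proteins of photosystem II in the green alga Chlamydomonas reinhardtii. These proteins bind chlorophyll a, chlorophyll b and carotenoids in the thylakoid membrane and form trimers that pass absorbed light energy to the photosystem II core. In excess light, part of that energy is released as heat, and in state transitions part of the antenna moves to photosystem I. The 9 genes LHCBM1 to LHCBM9 were taken by locus identifier from a table of 17527 gene entries, and all 9 had a methylation level in both genotypes. The names follow the published nomenclature of these loci, since neither the table nor the reference annotation gives gene symbols. Cytosine methylation had been measured by whole-genome bisulfite sequencing, in which unmethylated cytosine is converted and read as thymine while methylated cytosine is still read as cytosine.

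The mutant was a cmd1 knockout (cmd1 KO), which lacks CMD1, the TET homolog named in the series title, and it gave 2 libraries. Wild type (WT) cells gave 1 library. Both genotypes are of strain CC125, were grown mixotrophically in TAP medium at 25 °C at a light level of 20 μmol photons per square metre per second, and then received 300 μE in HSM medium, so the WT cells saw the high light too. The series asks whether cytosine methylation changes when CMD1 is lost. How the knockout was made and whether the 2 cmd1 KO libraries come from separate clones or cultures is not stated.

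Each genotype has 1 deposited level per gene, a mean over the sites listed for that gene. The 2 cmd1 KO libraries share 1 column, so no difference has a replicate check, no test over samples was possible, and every value describes these libraries. Read depth per site is unknown, so no interval can be given for a level. A difference was counted as large when it reached 10 percentage points. Over the 17326 genes with a level, the median was 5.89% in cmd1 KO and 1.05% in WT.

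All 9 LHCBM genes had a higher deposited level in cmd1 KO than in WT, and none of them by 10 points. Their levels lay between 5.24% and 9.56% in cmd1 KO (median 6.35%) and between 0.87% and 2.15% in WT (median 1.41%). The lowest cmd1 KO level was above the highest WT level, so the ranges over the 9 genes did not overlap. Over all genes the full ranges overlapped, at 2.05% to 80.8% in cmd1 KO and 0% to 81.0% in WT. The quartiles over all genes did not overlap, at 5.03% to 7.03% in cmd1 KO and 0.82% to 1.37% in WT. Of all genes, 99.1% were higher in cmd1 KO, 3.5% by 10 points or more and 0.404% by 20 points or more. These counts did not set the family apart, and how often other sets of 9 genes have separate ranges was not computed. No member was lower by 10 points, beside 0.0923% of all genes. In WT, 8 of 9 members stood under 2%, as 90.6% of all genes did, and LHCBM2 stood just above. The median difference of the family was 4.63 points, beside 4.73 points over all genes. The family differences were above the median of all genes in 4 of 9 members. In all 9 genes the cmd1 KO level rested on a shorter list of sites than the WT level, and the part of this in the differences was not tested.

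**Figure D1:**
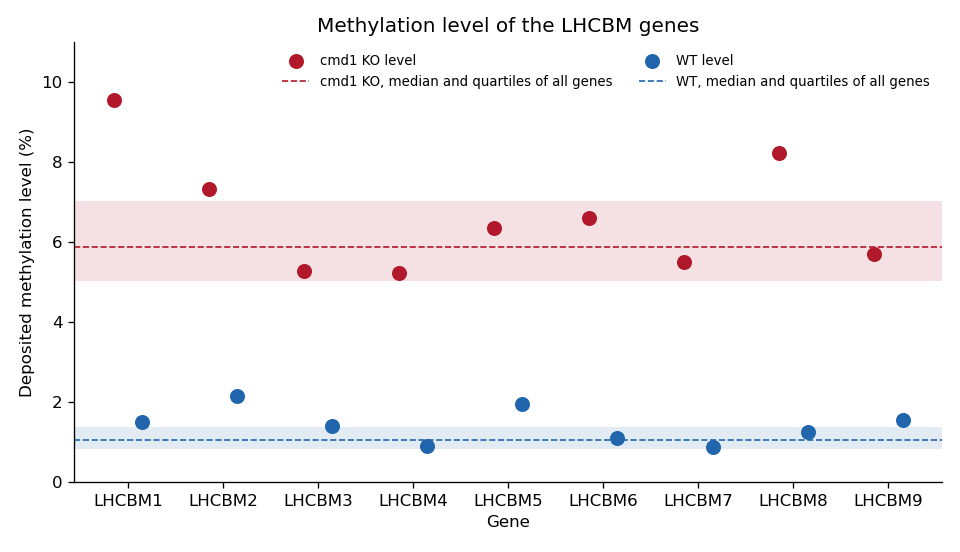
The deposited methylation level in percent is plotted for each LHCBM gene, with cmd1 KO in red left of WT in blue, 1 value per genotype. Dashed lines and shaded bands give the median and quartiles over 17326 genes. The cmd1 KO levels run from 5.24% to 9.56% and the WT levels from 0.87% to 2.15%.

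LHCBM1 had the largest difference of the family. The product of LHCBM1 (Cre01.g066917, chromosome 1), the type IV protein of the family, is known for its part in the release of excess light energy as heat. Its level was 9.56% over 34 sites in cmd1 KO and 1.50% over 55 sites in WT. The difference of 8.06 points exceeded that of 93.3% of all genes and stayed under 10 points. Its level was above that of 90.5% of genes in cmd1 KO and of 80.7% in WT.

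LHCBM2 and LHCBM7 encode the type III proteins, which are known for a role in state transitions and whose mature forms are identical. Both genes lie on chromosome 12, with 11 entries between them in the annotation order. LHCBM2 (Cre12.g548400) stood at 7.32% over 9 sites in cmd1 KO and at 2.15% over 21 sites in WT. LHCBM7 (Cre12.g548950) stood at 5.49% over 17 sites in cmd1 KO and at 0.87% over 63 sites in WT. The pair thus held the highest and the lowest WT level of the family, while their differences of 5.17 and 4.63 points were close. LHCBM2 rested on the fewest sites of the family in both genotypes, and only 1.96% of all genes had fewer WT sites. Reads from near-identical copies may be shared between genes, and no source used here says how the authors treated such reads, so the separate values of such copies are uncertain.

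LHCBM5 encodes the type II protein, which has been found with photosystem I in state transitions. LHCBM5 (Cre03.g156900, chromosome 3) stood at 6.35% over 29 sites in cmd1 KO and at 1.95% over 75 sites in WT. Its WT level exceeded that of 90.1% of genes, and its cmd1 KO level that of 61.9%. The ratio of its levels, 3.26, was the lowest of the family, beside a median of 5.52 over the 17293 genes with a WT level above 0.

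The type I genes are LHCBM3, LHCBM4, LHCBM6, LHCBM8 and LHCBM9. LHCBM3, which encodes a major trimer protein, had the smallest difference of the family. LHCBM3 (Cre04.g232104, chromosome 4) stood at 5.27% over 37 sites in cmd1 KO and at 1.41% over 95 sites in WT, 3.86 points apart, a larger difference than in 23.0% of genes. The other members of the type lie on chromosome 6 and encode near-identical proteins. The caution on shared reads is kept for them as well, though the likeness of their DNA was not computed here.

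LHCBM4 (Cre06.g283950) stood at 5.24% over 30 sites in cmd1 KO and at 0.90% over 112 sites in WT. LHCBM6 (Cre06.g285250), whose messenger is a known target of a translational repressor of the antenna, stood at 6.60% over 33 sites in cmd1 KO and at 1.10% over 109 sites in WT. Their differences of 4.34 and 5.50 points lay on either side of the median of all genes. LHCBM8 (Cre06.g284250) stood at 8.23% over 41 sites in cmd1 KO and at 1.25% over 120 sites in WT. Its difference of 6.98 points was the second of the family and exceeded that of 88.9% of genes. LHCBM9 (Cre06.g284200), known as a gene induced by nutrient starvation, stood at 5.71% over 22 sites in cmd1 KO and at 1.56% over 118 sites in WT. The difference of LHCBM9 was 4.15 points, more than in 31.6% of genes, although LHCBM8 is its immediate neighbour in the annotation order and has almost the same number of WT sites.

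**Figure D2:**
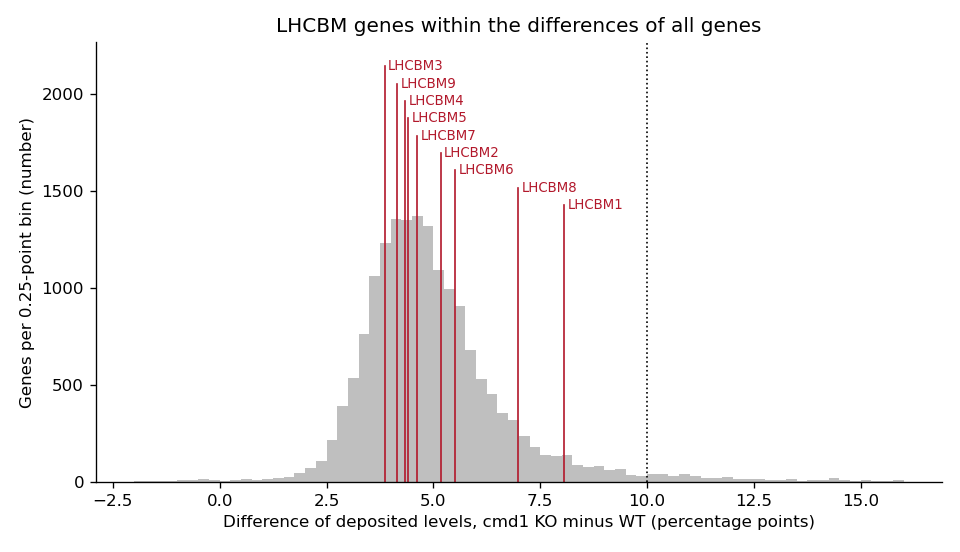
Grey bars count genes per 0.25-point bin of the difference cmd1 KO minus WT in percentage points, and red lines mark the LHCBM genes. The dotted line marks 10 points, and 90 genes below and 168 above the plotted range are not drawn. The members run from 3.86 points in LHCBM3 to 8.06 points in LHCBM1.

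The order of the genes differed between the genotypes. In cmd1 KO, LHCBM1 and LHCBM8 were highest and LHCBM3 and LHCBM4 lowest. In WT, LHCBM2 and LHCBM5 were highest and LHCBM4 and LHCBM7 lowest. The highest level was 1.82 times the lowest in cmd1 KO and 2.48 times the lowest in WT. Across the 9 genes, which share their libraries, Spearman's rho between the levels of both genotypes was 0.42 and Pearson's r was 0.30. Over all genes rho was 0.43 and r was 0.91, with levels of up to 80.8% in cmd1 KO and 81.0% in WT. Without replicates, the precision of any step in this order is unknown, and no neighbours in it can be called different.

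By size alone, 4 of the 9 genes (LHCBM1, LHCBM2, LHCBM6 and LHCBM8) were higher by at least 5 points in cmd1 KO, beside 41.7% of all genes. The p-values from the authors' deposited table were adjusted over 17326 genes by the Benjamini-Hochberg method. All 9 passed 0.05 by the authors' deposited p and were higher in cmd1 KO, beside 97.6% of all genes that did both. With the p from the authors' deposited table adjusted in this way, LHCBM2 had the largest p of the family, 0.0107, and LHCBM6 the smallest, 8.92e-16. Such a p sets 1 list of sites against another within these libraries, so it is no test of the genotype, and no source used here names the authors' test.

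What the levels rest on differed between the columns. Every LHCBM gene had fewer sites listed in cmd1 KO than in WT, as 96.4% of all genes did. The family had 252 sites in cmd1 KO and 768 in WT. The number of cmd1 KO sites was 0.62 of the WT number in LHCBM1, more than in 93.2% of genes. In LHCBM9 it was 0.19 of the WT number, and only 3.83% of genes had a lower share. LHCBM1 and LHCBM9 thus stood at opposite ends of the family in the balance of their lists, with the largest and the second smallest difference of the levels. The smallest difference, in LHCBM3, went with a share of 0.39, above the family median of 0.34. Across the 9 genes, Spearman's rho between the number of cmd1 KO sites and the difference was 0.22, beside 0.012 over all genes. That number is not the share of the WT number, for which no correlation with the difference was computed.

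**Figure D3:**
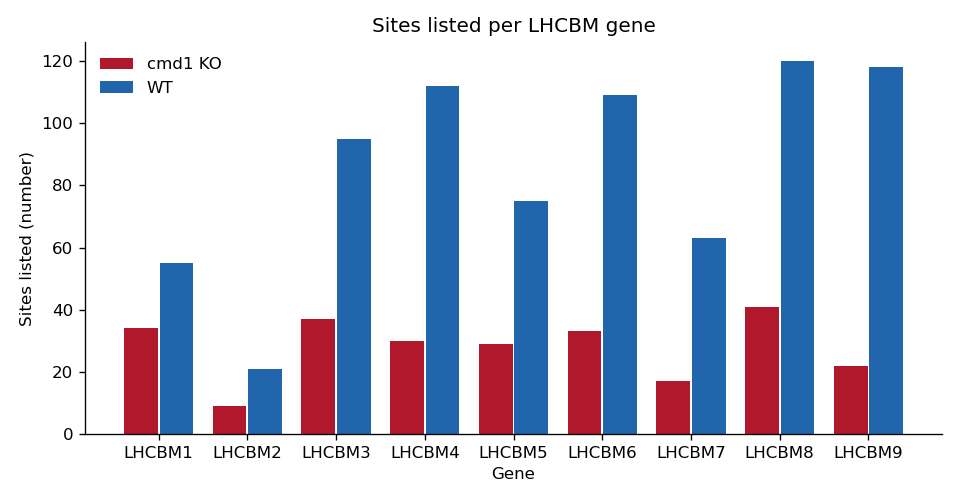
Bars give the number of sites listed for each LHCBM gene, cmd1 KO in red left of WT in blue. The cmd1 KO numbers run from 9 to 41 and the WT numbers from 21 to 120, with LHCBM2 lowest in both.

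The WT lists held repeated values, while the cmd1 KO lists need not have. A level times its site number gives the sum of the listed values, which was a whole multiple of 0.001 in all genes, within 1e-06 of a step. LHCBM4 had a WT sum of 1.01 over 112 sites, which allows at most 45 distinct values, so at least 67 of its sites repeated a value. By this count repeats had to be present in the WT lists of 8 of 9 members, LHCBM2 being the exception, and in 91.3% of all genes. In cmd1 KO, repeats were required in 0 of 9 members and in 0 of 17326 genes, so this count is no feature of the family. In the 33 genes of the table whose WT level is 0, the authors' deposited p equalled, within a relative tolerance of 1e-09, a rank-sum p in which the cmd1 KO values are all distinct and 1 of them is 0. This was so in 33 of 33 genes. Leaving a value of 0 out of a list raises its mean and keeps its sum. Whether the LHCBM lists were made in this way, and its part in the differences, was not tested.

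The summed values gave another picture of the family. The sum was higher in cmd1 KO in 8 of 9 members, beside 92.7% of all genes, and lower in LHCBM9, beside 7.11% of all genes. The 33 genes with a WT level of 0 have no ratio and were not counted as higher in the 92.7%. LHCBM9 had a sum of 1.26 in cmd1 KO and 1.84 in WT, a ratio of 0.68, and only 1.40% of genes had a lower ratio. LHCBM1 had a sum of 3.25 in cmd1 KO and 0.82 in WT, a ratio of 3.95 that exceeded that of 94.6% of genes. The remaining members had ratios between 1.26 in LHCBM5 and 2.24 in LHCBM8. The family median was 1.55, beside 1.71 over all genes. The ratio is also the multiple of the WT site number at which the cmd1 KO level would equal the WT level, with the cmd1 KO sum kept as it is. This holds only where every site added to the cmd1 KO list has a value of 0, since any other value would raise the sum. Under that condition, equal site numbers would put cmd1 KO below WT in LHCBM9, and LHCBM1 would stay higher in cmd1 KO up to 3.95 times the WT sites. Where repeated values above 0 were left out too, the cmd1 KO sums are too low. The sums were chosen as a measure after the values had been seen.

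**Figure D4:**
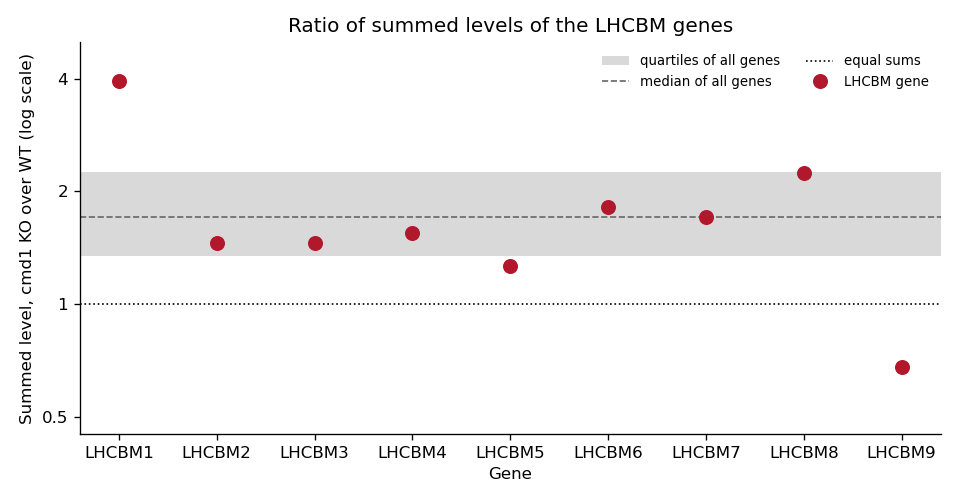
The ratio of the summed values, cmd1 KO over WT, is drawn on a log axis for each LHCBM gene. The grey band and dashed line give the quartiles and median over 17293 genes, and the dotted line marks equal sums. LHCBM9 at 0.68 lies below equal sums and LHCBM1 at 3.95 lies above the band.

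The genes next to the members gave values of the same order. The nearest entries with a level on each side of the members comprised 16 loci outside the family, and all 16 were higher in cmd1 KO. Their median level was 6.57% in cmd1 KO and 1.01% in WT, and their median difference was 5.45 points. The member had the larger difference in 7 of 16 pairs of member and neighbour. LHCBM1 exceeded both of its neighbours, which differed by 7.90 points in Cre01.g066552 and 5.36 points in Cre01.g067282. LHCBM6 and LHCBM8 exceeded both of theirs as well. LHCBM5 stayed below both of its own, Cre03.g156850 with 7.17 points and Cre03.g156950 with 5.55 points. LHCBM3, LHCBM4 and LHCBM9 also stayed below both, while LHCBM2 and LHCBM7 lay between theirs. Here LHCBM8 and LHCBM9 count as neighbours of each other.

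On chromosome 6, 2 of the neighbours passed 10 points while the members beside them did not. Cre06.g283900, next to LHCBM4, stood at 13.2% over 66 sites in cmd1 KO and at 1.42% over 137 sites in WT. Cre06.g284150, next to LHCBM9, stood at 15.1% over 30 sites in cmd1 KO and at 1.25% over 65 sites in WT. The entries on either side of Cre06.g284150, which itself differed by 13.8 points, were Cre06.g284100 with 5.53 points and LHCBM9 with 4.15 points. No function is annotated for these 2 loci in the sources used here.

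The stretch from LHCBM4 to LHCBM6 held 30 entries, 26 of them outside the family. These 26 loci were all higher in cmd1 KO, by 3.65 to 13.8 points with a median of 5.48 points, and 1 of them passed 10 points. LHCBM8 exceeded 23 of the 26 differences, LHCBM6 exceeded 13, LHCBM4 exceeded 8 and LHCBM9 exceeded 6. In the summed values, 4 of the 26 loci were lower in cmd1 KO, beside 7.11% of all genes. A ratio below that of LHCBM9 was found in 1 of the 26, beside 1.40% of all genes. The 4 family members thus lay within the range of the genes around them in both measures.

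**Figure D5:**
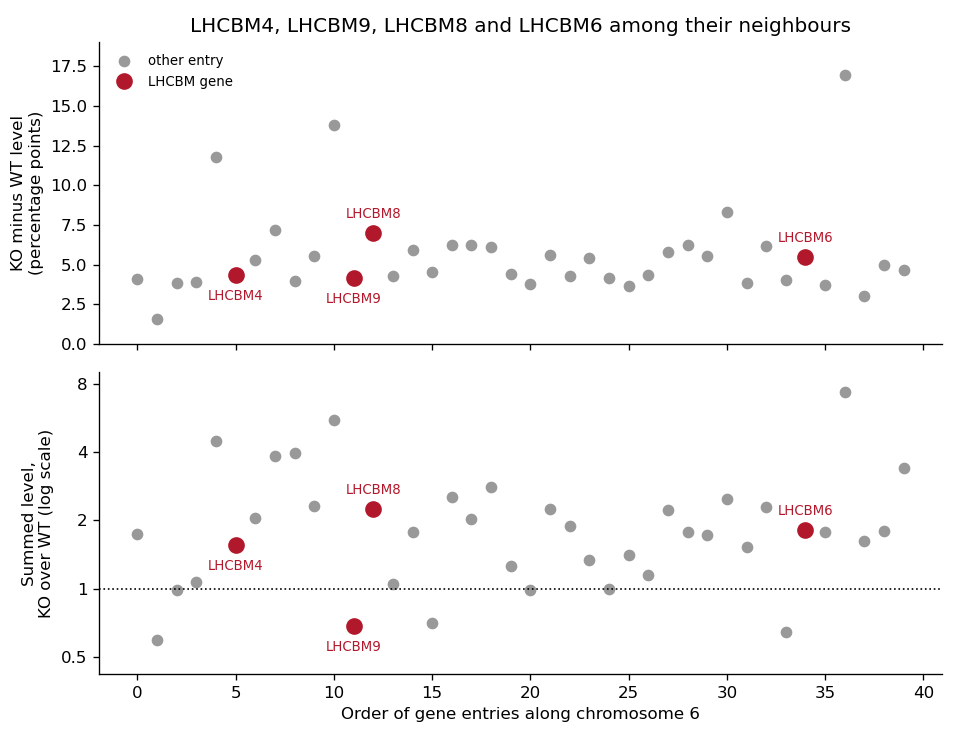
Gene entries are drawn in their order along chromosome 6, from 5 before LHCBM4 to 5 after LHCBM6, with LHCBM genes in red. The upper panel gives the difference cmd1 KO minus WT in percentage points and the lower panel the ratio of summed values on a log axis. LHCBM9 and LHCBM8 lie side by side at 4.15 and 6.98 points and at ratios of 0.68 and 2.24.

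Other light-harvesting loci, listed by published identifier and not annotated in the table, showed similar levels. The list held 19 loci: 9 of the photosystem I antenna (LHCA), 2 of the minor photosystem II antenna, 5 of the LHCSR and PSBS photoprotection genes and 3 that act on antenna translation, phosphorylation and chlorophyll b synthesis. All 19 were higher in cmd1 KO and none by 10 points. The LHCA loci had a median level of 5.66% in cmd1 KO and 1.11% in WT, and a median difference of 4.78 points. The 5 photoprotection loci had a median of 8.44% in cmd1 KO and 1.15% in WT, and a median difference of 6.50 points. The 2 minor antenna loci had a median of 7.85% in cmd1 KO and 1.43% in WT, and a median difference of 6.42 points. For the 3 loci that act on the antenna, these medians were 6.42%, 1.21% and 4.90 points. In cmd1 KO, the LHCBM median of 6.35% lay above that of the LHCA loci and below the others. In WT, the LHCBM median of 1.41% lay just below that of the minor antenna and above the others. No difference between the groups was tested. A lower summed value in cmd1 KO was found in 1 of the 19 loci, beside 7.11% of all genes. It was an LHCA locus (Cre10.g452050) with 9 sites in cmd1 KO and 42 in WT.

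Both levels lay within the ranges of the 9 members in 7387 genes, 42.6% of all genes with a level. The lowest and highest members set those ranges, so this share does not place the family among all genes. In WT, 7 of 9 members stood above the median of all genes, and in cmd1 KO 5 of 9. The family median of 1.41% in WT lay above the third quartile of all genes, 1.37%. The 2 genes closest to the family medians over both genotypes were Cre03.g185350, at 6.35% in cmd1 KO and 1.40% in WT, and Cre13.g574000, at 6.36% in cmd1 KO and 1.41% in WT. Each lay within 0.0124 points of the family medians, a distance over 2 values per gene.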

How the data were processed

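The tools listed in the submitters' processing notes are BSMAP, Trimmomatic 0.36 and FastQC 0.11.5. Per the labels' protocols, about 500 ng of DNA fragments of about 300 bp, with a spike of some 2% unmethylated lambda DNA, went into bisulfite conversion. Conversion rates were not used here. The sources used here do not give the genome build, cytosine contexts, gene regions or coverage minimum.

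Per the file headers, the authors deposited a count of sites per gene and genotype (sites, not reads) and the methylation level as a fraction, printed here as percent. They also deposited the difference, relative change, fold and an unadjusted p-value. Levels are empty in 201 of 17527 entries. The WT levels rest on 1454118 sites and the cmd1 KO levels on 516767.

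Members were found by identifier. Their values, percentiles among 17326 genes and summed values were computed with Python 3.11.15, pandas 2.3.3 and SciPy 1.17.1. The counting of calls and the adjustment were tested on simulated data. Neighbours come from the order of assembly Chlamydomonas_reinhardtii_v5.5, where 17525 entries matched. Start coordinates served only to put the entries in order, and distances and sequences were not used. The planned limma fit could not be run on 1 column per genotype. Members and lists were chosen with earlier results of these data known. The text names all 9 members, their flanking loci, the related loci and the 2 loci nearest to the family medians. Alternatives were other denominators, site minimums, sizes of a called difference, centring and summaries.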

Additional observations from a re-analysis of the deposited data

How the results depend on the processing

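No paired analysis was possible because the 2 cmd1 KO libraries share 1 column, and for the same reason no replicate could be left out. All 9 LHCBM genes were higher in cmd1 KO with the deposited levels, with a median difference of 4.63 points and a median cmd1 KO level of 6.35%. With the summed cmd1 KO values divided by the WT site number where that is larger, 8 were higher (92.1% of all genes), the median difference was 0.65 points (0.74 over all genes) and the median cmd1 KO level was 2.05%, while LHCBM9 turned to -0.50 points. A further denominator was 1.52 times the WT site number, the median ratio of site numbers in the 150 genes at 40% or more in WT. With it, 5 members were higher (62.9% of all genes). The median difference was 0.018 points (0.13 over all genes) and the median cmd1 KO level 1.35% (1.19% over all genes). LHCBM2 then stood at -0.090 points, LHCBM3 at -0.057, LHCBM5 at -0.33 and LHCBM9 at -0.86. These denominators count missing cmd1 KO sites as 0, which lowers the level by construction. LHCBM1 stayed higher under both, by 4.41 and 2.39 points. After each column was centred on its median over all genes, 4 members were higher (46.8% of all genes) and the median difference was -0.21 points, with LHCBM3 at -0.97, LHCBM4 at -0.50, LHCBM5 at -0.43, LHCBM7 at -0.21 and LHCBM9 at -0.69. Centring by itself moves this share towards an even split. The mean over members was 5.23 points. The median was 4.40 points over the 7 members with at least 20 sites in both columns (without LHCBM2 and LHCBM7), and 4.40 points over LHCBM1 to LHCBM5, which keeps 1 of each near-identical group as published, since identities were not computed here. At a size of 5 points 4 members were called, and at 10 and 20 points 0. As a ratio of summed values, chosen after seeing the data, LHCBM9 turned from 3.65 for its levels to 0.68. Unknown read depth and 1 value per genotype limit all of these values.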
